A study of Homo sapiens with 4 samples.

Results

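The genes described here are the SR proteins, the heterogeneous nuclear ribonucleoproteins (hnRNPs), the SF3 subunits of the spliceosome and the epithelial splicing regulatory proteins (ESRPs). They were picked by a rule on symbols, which was chosen with earlier results of these data known. It took symbols made of SRSF, SF3A or SF3B and a number, symbols that begin with HNRNP, and ESRP1 and ESRP2. This gave 45 of the 20809 targets, namely 12 SRSF genes, 22 HNRNP genes, 9 SF3 genes and 2 ESRP genes. RNA was compared between MDA-MB-468/R, the drug-resistant subline, and MDA-MB-468/WT, the parental line, with 2 libraries in each group. MDA-MB-468 is an established triple-negative breast cancer (TNBC) line of basal epithelial type. MDA-MB-468/R was selected with adriamycin (doxorubicin), cytoxan (cyclophosphamide) and taxotere (docetaxel) over 6 months, and MDA-MB-468/WT is labelled as untreated, although a protocol label on those samples names the same drugs. The model is 1 resistant subline of 1 cell line, and no source used here says that the libraries of a group came from separate cultures, so a p-value here reflects only how far these libraries spread, which may be technical. The groups are called R and WT below.

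Introns are removed from pre-mRNA by the spliceosome, and which exons are kept is set in part by proteins that bind the RNA beside the splice sites. SR proteins carry RNA recognition motifs and a tail rich in arginine and serine, bind exonic enhancers and mostly favour exon inclusion. The hnRNPs are abundant RNA-binding proteins of the nucleus, and many of them bind silencers and favour skipping. SF3A and SF3B are the multi-subunit parts of the U2 snRNP, the particle that recognises the branch point of an intron. ESRP1 and ESRP2 are made mainly in epithelial cells and set epithelial isoforms of transcripts such as FGFR2 and CD44.

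The assay read a single short amplicon of each gene, given as reads per 1000000 reads on the targets (RPM). It therefore shows how much of that piece of RNA was present, not which isoform was made, and the same gene is best compared between libraries rather than different genes within a library. Several of these genes have relatives or near copies elsewhere in the genome, and the position of the amplicons within the genes was not known. The coding sequences of 2 related pairs are therefore shown to give a view of how far reads can be told apart. Each run is the first 90 coding bases of the GENCODE transcript on GRCh38, read in the direction of transcription, with capitals at the bases where the pair differs.
SRSF8 (chr11:95067227-95067316, plus strand): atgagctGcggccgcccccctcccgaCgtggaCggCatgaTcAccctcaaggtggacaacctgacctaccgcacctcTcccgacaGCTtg
SRSF2 (chr17:76737071-76737160, minus strand): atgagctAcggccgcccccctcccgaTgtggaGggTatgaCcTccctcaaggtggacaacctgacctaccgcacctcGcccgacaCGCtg
SRSF12 (chromosome 6, across exons): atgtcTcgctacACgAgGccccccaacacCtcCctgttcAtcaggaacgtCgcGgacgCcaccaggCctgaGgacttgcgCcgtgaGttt
SRSF10 (chromosome 1, across exons): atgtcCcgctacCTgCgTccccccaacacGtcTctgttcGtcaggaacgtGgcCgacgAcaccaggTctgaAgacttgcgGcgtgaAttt

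SRSF8 and SRSF2 differed at 10 of these bases and SRSF12 and SRSF10 at 15. Over the aligned coding sequence SRSF8 and SRSF2 were 84.8% identical, with 201 gap columns left out. In any stretch of 100 alignment columns, with a gap counted as a difference, they had at least 6 differences. Their longest identical run was 34 bases. SRSF12 and SRSF10 were 69.7% identical, with 83 gap columns left out and at least 10 differences in any such stretch. HNRNPA1L2 and HNRNPA1 were 98.4% identical over 963 bases, with 0 to 3 differences in any such stretch and an identical run of 174 bases, so the split of reads between HNRNPA1L2 and HNRNPA1 is uncertain.

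All 4 libraries held 6841709 to 7978069 reads, recovered from the deposited values, and 69.0% to 71.2% of the targets were above 0. A floor of 3 reads was worth 0.376 to 0.438 RPM. Of the 9 breast carcinoma epithelial markers all were tested and 2 were lower in R cells (KRT5 and KRT17). That is 22.2% called, against 16% of all tested genes. Both R libraries lay below both WT libraries for 7 of the 9 markers, where 32.2% of all tested genes did so. The summed level of the 9 markers was 10856 to 11079 RPM in R cells and 12996 to 13038 RPM in WT cells. Markers of other cells were low, except in the leukocyte set. There the median level of the tested markers was 48.7 RPM, against 26.4 RPM over all tested genes. DCN and PDGFRB of fibroblasts, VWF of endothelium and PTPRC and CD3E of leukocytes had 0 reads in every library. The 5 fibroblast markers together gave 11.4 to 14.0 RPM in R cells and 17.0 to 17.8 RPM in WT cells, nearly all of it from COL1A1, which did not pass (log2 fold change -0.48, adjusted p = 0.122, limma). The 4 endothelial markers together gave 3.0 to 3.13 RPM in R cells and 8.46 to 9.50 RPM in WT cells, with CDH5 and KDR lower in R cells. These R sums are so low that a call here can rest on a gene tested only through its reads in WT cells. Of the leukocyte markers CD68 was lower in R cells, CD14 did not pass, and together they gave 83.0 to 87.2 RPM in R cells and 109 to 110 RPM in WT cells. Their part in the results was not tested. In bulk RNA, fewer cells that make a transcript and less of it per cell cannot be told apart.

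Nearly all of the splicing factor genes were expressed, and 4 passed the test of a difference between the lines. Of the 45 genes, 43 reached 10 reads in 2 or more libraries and were tested. HNRNPCL1, an hnRNP C-like gene, and HNRNPKP3, a pseudogene, had 0 reads in all 4 libraries, which allows up to 3 reads in each. Among the 43 tested genes, 2 were higher in R cells (SRSF8 and HNRNPAB), 2 were lower (SF3B5 and SRSF12) and 39 did not pass an adjusted p of 0.05 (limma, Benjamini-Hochberg over all 12118 tested genes). The called share was 9.3%, against 16% of all tested genes (5.36% of all tested genes were higher and 10.6% lower). Only SRSF12 also reached a fold change of 2.5, as did 3.26% of all tested genes (0.809% of all tested genes higher and 2.45% lower). SRSF12 had 0 reads in both R libraries and was tested only through its reads in WT cells. The minimum of reads thus fixed its direction in advance, and its call is no independent support. Without SRSF12, 3 of 42 genes (7.14%) passed, 1 of them lower, and 0 reached 2.5-fold. Whether the share of calls among the splicing factors differs from that of all genes was not tested.

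The median log2 fold change (R over WT, that is MDA-MB-468/R over MDA-MB-468/WT) over the 43 genes was -0.005, against -0.03 over all tested genes, and the median absolute log2 fold change was 0.12, against 0.24 over all tested genes. Among genes of at least 50 RPM, a level chosen after the values had been seen, it was 0.125 for 36 splicing factor genes and 0.20 for all 3956 tested genes at that level. The 95% interval of the fold change lay within 2-fold in either direction for 42 of the 43 genes and for 80.6% of all tested genes. It lay within 1.5-fold for 37 of the 43 genes, against 41.2% of all tested genes and 66.1% of those of at least 50 RPM. Both R libraries were above both WT libraries for 10 of the 43 genes and below both for 7, where 26.1% and 32.2% of all tested genes did so. The levels in each library and the fold changes with their intervals are plotted by gene.

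**Figure D1:**
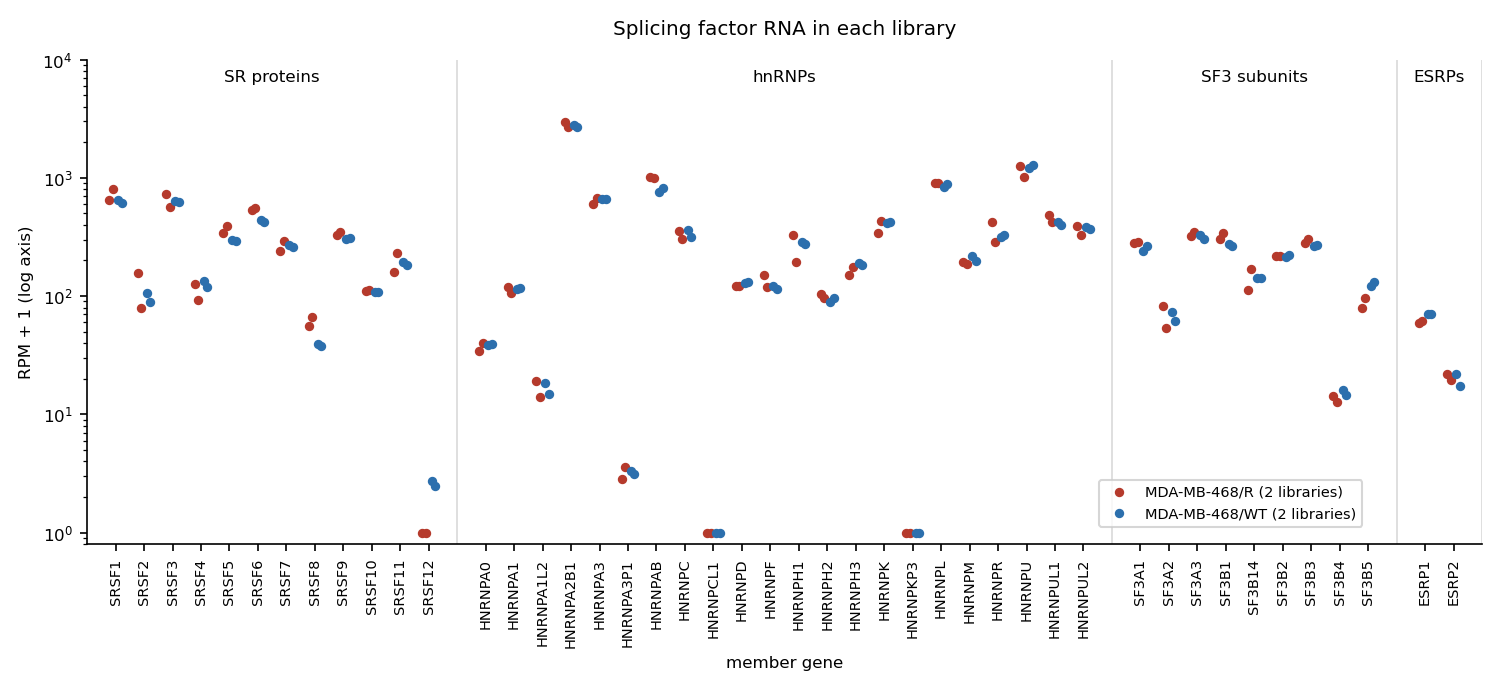
Level of each of the 45 splicing factor genes in each library, as RPM plus 1 on a log axis, with the 2 R libraries in red to the left of the 2 WT libraries in blue. The points of most genes lie on top of each other or close by, SRSF8, HNRNPAB and SF3B5 are set apart by group, and SRSF12 sits at 0 reads in R cells.

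**Figure D2:**
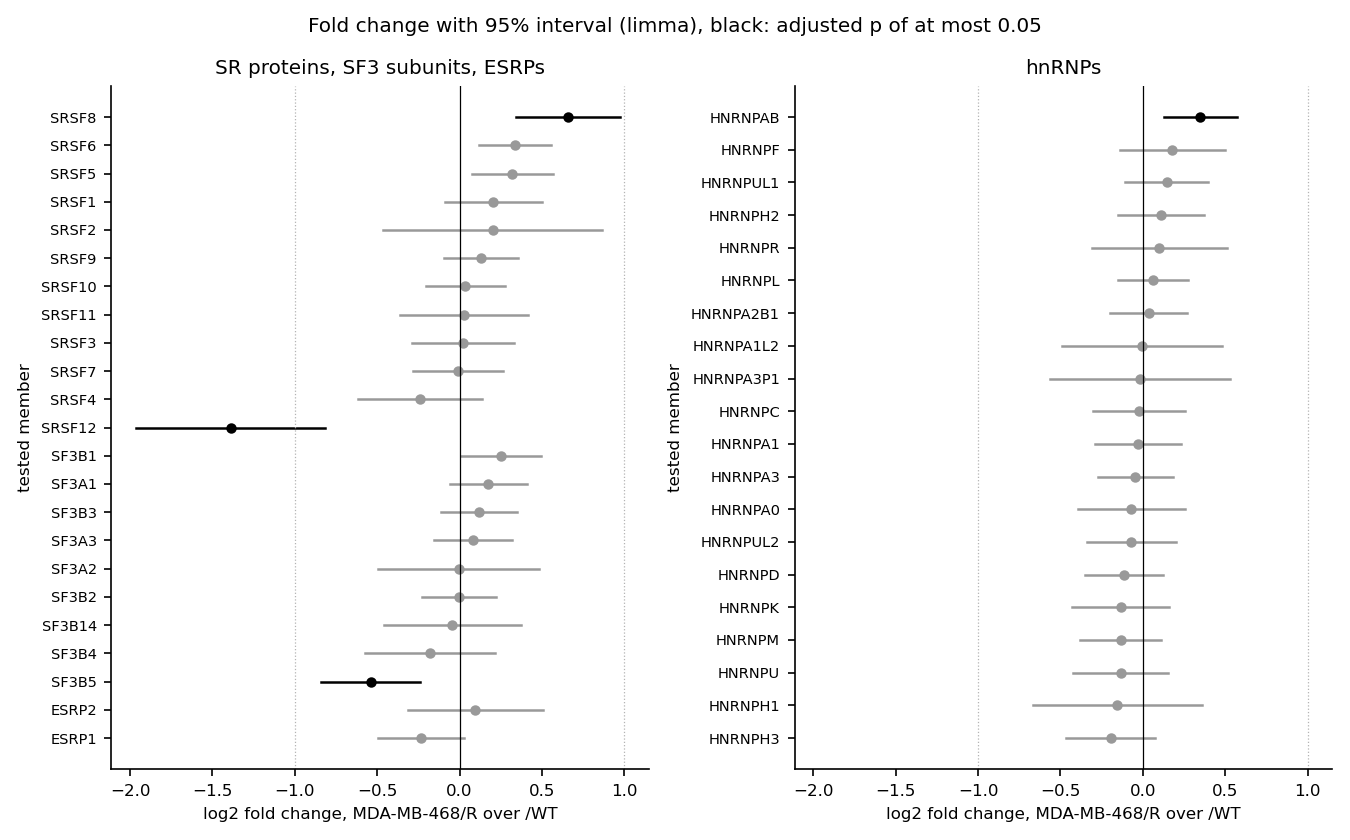
Log2 fold change of R over WT for the 43 tested genes, with the 95% interval from limma as a bar, black where the adjusted p is at most 0.05 and grey otherwise. The 4 black points are SRSF8 at 0.66, HNRNPAB at 0.35, SF3B5 at -0.54 and SRSF12 at -1.39, and dotted lines mark 2-fold in either direction.

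The SR proteins had the widest range of log2 fold changes of the 4 families, from -1.39 for SRSF12 to 0.66 for SRSF8. Without SRSF12, which had 0 reads in R cells, it ran from -0.24 to 0.66, against -0.54 to 0.25 for the SF3 genes. SRSF8, a single-exon copy of SRSF2 on chromosome 11, had 55.1 and 65.7 RPM in R cells, against 38.4 and 37.1 RPM in WT cells. Both resistant libraries were above both parental ones, and the level was 60.4 ± 7.51 RPM in R cells and 37.7 ± 0.949 RPM in WT cells (SD, n = 2 each). The log2 fold change was 0.66 with a standard error of 0.135 (adjusted p = 0.0170, limma). SRSF2, from which SRSF8 differs at the capital letters above, had 157 and 78.3 RPM in R cells and 105 and 88.3 RPM in WT cells. Here the resistant libraries lay on either side of the parental ones, and the interval of the log2 fold change ran from -0.47 to 0.87.

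SRSF12, which in test tube splicing acts against other SR proteins, was at the lower edge of detection. It had 0 and 0 reads in R cells, against 12 and 12 reads, or 1.75 and 1.5 RPM, in WT cells. Taken against the floor of 3 reads per library, it was at least 3.87-fold lower in R cells, with an adjusted p of 0.0102 (limma). It was tested only through its reads in WT cells, which fixed the direction, so this p-value adds no support. The fitted log2 fold change of -1.39 depends on the 1 RPM added before the logarithm and is no bound. SRSF10, its nearest relative among the SR proteins and a factor that turns into a general repressor when dephosphorylated, had 109 and 111 RPM in R cells and 107 and 107 RPM in WT cells, a log2 fold change of 0.04 (interval -0.20 to 0.27).

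SRSF2, SRSF10 and the other 8 SR genes did not pass the test. SRSF1, the prototype SR protein and the most abundant SRSF gene by mean RPM, had 643 and 808 RPM in R cells and 643 and 608 RPM in WT cells (log2 fold change 0.21, interval -0.09 to 0.50, adjusted p = 0.313 by limma). SRSF6 had 533 and 559 RPM in R cells and 442 and 424 RPM in WT cells, and SRSF5 had 342 and 392 RPM in R cells and 295 and 291 RPM in WT cells. For SRSF5 and SRSF6, related proteins that bind exonic enhancers and were picked out after their values had been seen, the groups did not overlap, with log2 fold changes of 0.32 and 0.34 and adjusted p of 0.0843 and 0.0510 (limma). SRSF6 passed under another scaling, as given with the processing alternatives. SRSF3, a small SR protein that also links splicing to mRNA export, had 728 and 563 RPM in R cells and 638 and 625 RPM in WT cells. SRSF4, SRSF7, SRSF9 and SRSF11 had log2 fold changes between -0.24 for SRSF4 and 0.13 for SRSF9. Summed over the 12 SRSF genes the level was 3416 and 3533 RPM in R cells and 3171 and 3054 RPM in WT cells, and the median log2 fold change was 0.08. The sum was not tested.

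Among the hnRNPs only HNRNPAB passed the test. HNRNPAB, a relative of HNRNPD that binds RNA and single-stranded DNA, had 1023 and 988 RPM in R cells, against 764 and 814 RPM in WT cells. The resistant libraries were both above the parental ones, at 1006 ± 24.7 RPM in R cells and 789 ± 34.8 RPM in WT cells (SD, n = 2 each). The log2 fold change was 0.35 with a standard error of 0.0938 (adjusted p = 0.0441, limma). HNRNPD, also called AUF1, which binds AU-rich elements and promotes decay of the mRNAs that carry them, had 120.1 and 120.1 RPM in R cells and 129 and 132 RPM in WT cells, a log2 fold change of -0.12 (interval -0.35 to 0.12).

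The hnRNPs of the A group, which bind exonic silencers, stayed close between the lines. HNRNPA2B1, the most abundant of all 45 genes by RPM, had 2956 and 2683 RPM in R cells and 2797 and 2701 RPM in WT cells. Its groups overlapped, and the log2 fold change was 0.04 with an interval from -0.20 to 0.27. HNRNPA1 had 119 and 105 RPM in R cells and 113 and 116 RPM in WT cells, and its copy HNRNPA1L2, whose coding sequence has no intron, had 18.2 and 13.1 RPM in R cells and 17.4 and 13.8 RPM in WT cells. Both ratios were near 1, at 0.981 for HNRNPA1 and 1.003 for HNRNPA1L2, with the split between these 2 genes uncertain because of their identity. HNRNPA0, HNRNPA3 and HNRNPA3P1, a pseudogene with 13 to 19 reads a library, had log2 fold changes of -0.07, -0.05 and -0.02.

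Of the hnRNPs that read other sequence, none passed the test. HNRNPL, which binds CA repeats, had 897 and 897 RPM in R cells and 842 and 878 RPM in WT cells, so the groups did not overlap but differed by only 0.06 on the log2 scale. HNRNPC, which binds uridine tracts, had 356 and 306 RPM in R cells and 359 and 314 RPM in WT cells. HNRNPK, which binds poly-C stretches, had 339 and 427 RPM in R cells and 412 and 424 RPM in WT cells. The members that bind runs of G were HNRNPF, HNRNPH1, HNRNPH2 and HNRNPH3, with log2 fold changes of 0.18, -0.16, 0.11 and -0.20. HNRNPM, HNRNPR, HNRNPU, HNRNPUL1 and HNRNPUL2 lay between -0.14 for HNRNPM and HNRNPU and 0.15 for HNRNPUL1. The summed level of the 22 HNRNP genes was 9958 and 9063 RPM in R cells and 9362 and 9329 RPM in WT cells, so the sums overlapped. The median log2 fold change of the 20 tested genes was -0.03, and the lowest of them was -0.20 for HNRNPH3.

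Of the SF3 genes, only SF3B5 passed the test. SF3B5, a small subunit of SF3B, had 78.3 and 95.3 RPM in R cells, against 122 and 131 RPM in WT cells. Both resistant libraries lay below both parental ones, at 86.8 ± 12.02 RPM in R cells and 126 ± 6.23 RPM in WT cells (SD, n = 2 each). The log2 fold change was -0.54 with a standard error of 0.128 (adjusted p = 0.0295, limma). SF3B1, the large subunit that clamps the branch point and the target of splicing inhibitors such as pladienolide B, had 301 and 342 RPM in R cells and 273 and 266 RPM in WT cells. Its groups did not overlap, but at a log2 fold change of 0.25 (interval 0.01 to 0.49) it did not pass (adjusted p = 0.151, limma). It was 1 of 7 splicing factor genes past an unadjusted p of 0.05, which is 16.3% of the 43, where 31.3% of all tested genes passed.

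The other SF3 genes did not pass. SF3A3, the most abundant SF3 gene by mean RPM, had 319 and 349 RPM in R cells and 325 and 306 RPM in WT cells (log2 fold change 0.08). SF3B2, which pairs with SF3B4, had 216 and 217 RPM in R cells and 213 and 222 RPM in WT cells, while SF3B4 had 13.3 and 11.7 RPM in R cells and 15.1 and 13.5 RPM in WT cells. The target listed as SF3B14, now named SF3B6, encodes the subunit that contacts the branch point adenosine, and its log2 fold change was -0.05 (interval -0.46 to 0.37). SF3A1, SF3A2 and SF3B3 had log2 fold changes of 0.18, -0.01 and 0.12. PHF5A, an SF3B subunit whose name lies outside the rule, had 76.2 and 84.6 RPM in R cells and 76.2 and 79.4 RPM in WT cells. Over the 9 SF3 genes the sum was 1681 and 1820 RPM in R cells and 1662 and 1673 RPM in WT cells.

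The epithelial regulators ESRP1 and ESRP2 were present in both lines and neither passed the test. ESRP1, on chromosome 8, had 57.9 and 60.0 RPM in R cells and 69.0 and 70.0 RPM in WT cells. Its resistant libraries were both below the parental ones, with a log2 fold change of -0.24 (interval -0.50 to 0.03, adjusted p = 0.200, limma). ESRP2 had 21.0 and 18.6 RPM in R cells and 20.9 and 16.3 RPM in WT cells. Its groups overlapped, and the interval of its log2 fold change of 0.10 ran from -0.32 to 0.51 (adjusted p = 0.760, limma).

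Of 15 epithelial and epithelial-mesenchymal transition (EMT) genes listed to go with the ESRPs, 10 were tested. Of these, 1 was higher in R cells, 3 were lower and 6 did not pass, which is 40% called, against 16% of all tested genes. The list was chosen with earlier results of these data known, so this share cannot serve as a test. Whether it differs from that of all genes was not tested. VIM, the mesenchymal filament vimentin, had 3.29 and 2.46 RPM in R cells, against 65.7 and 71.0 RPM in WT cells, a log2 fold change of -4.17 (adjusted p = 4.73e-05, limma). The resistant libraries were both far below the parental ones, and the mesenchymal transcription factor genes ZEB2 and SNAI2 and the cadherin gene CDH2 had 0 reads in every library. These 3 were the only listed genes with 0 reads throughout. The mesenchymal transcription factor genes ZEB1, SNAI1 and TWIST1, also on the list, each had some reads. RAB25, a small GTPase of epithelial cells, had 295 and 260.4 RPM in R cells and 364 and 376 RPM in WT cells (-0.42 on the log2 scale), and ST14, an epithelial membrane protease, had 134 and 111 RPM in R cells and 168 and 167 RPM in WT cells (-0.45). OVOL1, a transcription factor that represses mesenchymal genes, had 5.15 and 3.56 RPM in R cells and 1.46 and 2.14 RPM in WT cells (0.93, adjusted p = 0.0466, limma). It did not pass under limma-voom (adjusted p = 0.0580), with 0.25 RPM as the pseudocount (0.0522) or with the replicate block (0.0664). RAB25 and ST14 did not pass with the replicate block either (adjusted p = 0.0753 and 0.0686, limma). At a mean of at least 5 RPM, ST14 did not pass (adjusted p = 0.0501, limma). CDH1, which encodes E-cadherin, and EPCAM had log2 fold changes of -0.25 and -0.10 and did not pass.

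The 4 calls were also tested with each library left out, which leaves 1 library in a group and takes the spread between libraries from the other group alone, on the assumption that the lone library varies as they do. Without WT replicate 1 or without WT replicate 2, none of SRSF8, HNRNPAB, SF3B5 and SRSF12 passed, with adjusted p between 0.101 for SRSF12 and 0.549 for HNRNPAB (limma), and the calls over all tested genes were 11 higher and 52 lower without the first and 9 higher and 48 lower without the other, against 649 and 1290 with all 4 libraries. Without R replicate 1 only SRSF8 of these 4 passed (adjusted p = 0.0307), and SRSF12 passed under none of the 4 omissions. The log2 fold changes without a WT library stayed close to those with all 4 libraries, at 0.64 to 0.69 for SRSF8, 0.31 to 0.40 for HNRNPAB, -0.59 to -0.49 for SF3B5 and -1.46 to -1.32 for SRSF12. The groups of all 4 genes do not overlap, so no omission could change their direction.

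The R libraries differed more from each other than the WT libraries did. The median absolute gap between the libraries of a group was 0.21 on the log2 scale in R cells and 0.06 in WT cells over the 43 genes, and 0.23 in R cells and 0.10 in WT cells over all tested genes. In R cells the gap exceeded 0.5 for 6 of the 43 genes, and in WT cells for 0. Over all tested genes it did so for 14.3% in R cells and 3.54% in WT cells. The 6 genes did not lie on the same side: SRSF2, HNRNPH1, SF3A2 and HNRNPR were higher in R replicate 1 and SF3B14 and SRSF11 higher in replicate 2. The largest gap was 0.99 for SRSF2, followed by HNRNPH1, with 328 and 193 RPM in R cells and 283 and 277 RPM in WT cells. The interval of the log2 fold change of HNRNPH1 ran from -0.67 to 0.36.

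**Figure D3:**
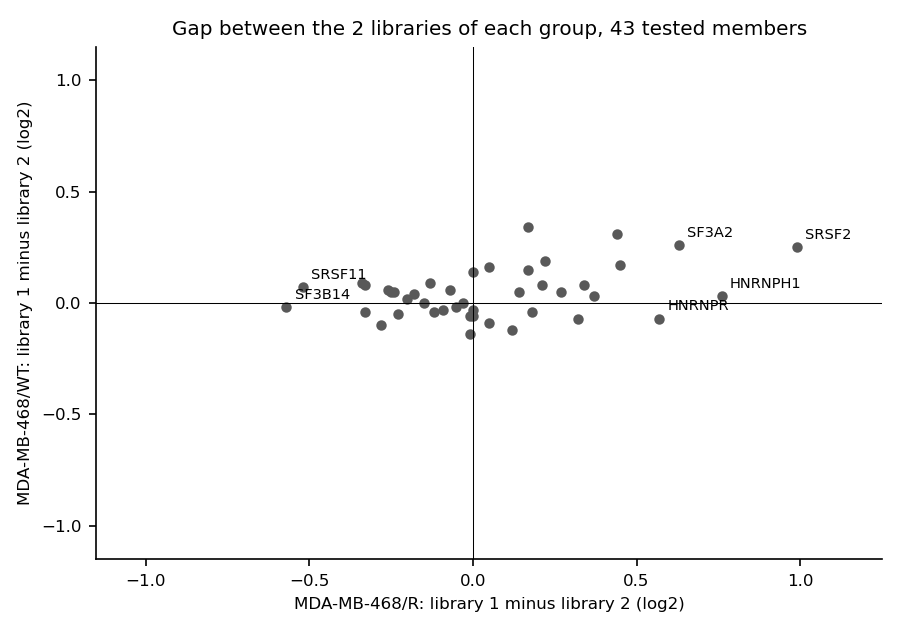
Gap on the log2 scale between library 1 and library 2 of R (x axis) and of WT (y axis), 1 point for each of the 43 tested genes. The 6 named genes have a gap over 0.5 in R cells, and no gene has one in WT cells.

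The rest of the splicing machinery was followed by 3 further lists. Of 79 core spliceosome genes, 78 were tested, 2 were higher in R cells, 2 were lower and 74 did not pass, so that 5.13% were called, against 16% of all tested genes, with a median log2 fold change of 0.04. PUF60, which acts with U2AF at the acceptor site, had 63.4 and 69.5 RPM in R cells, against 31.9 and 29.1 RPM in WT cells, a log2 fold change of 1.10 (adjusted p = 0.00181, limma). PRPF19, a ubiquitin ligase of the spliceosome, rose by 0.36 on the log2 scale, at 231 ± 6.83 RPM in R cells and 180.1 ± 5.32 RPM in WT cells (SD, n = 2 each). PRPF19 did not pass with the replicate block (adjusted p = 0.104, limma). The lower genes were ZRSR2, which recognises the acceptor site of minor introns, with 8.58 and 9.13 RPM in R cells and 19.0 and 16.8 RPM in WT cells, and SNRPB2, a protein of the U2 snRNP, with 55.1 and 64.3 RPM in R cells and 97.4 and 94.0 RPM in WT cells. U2AF1, which contacts the AG of the acceptor site, had 285 and 319 RPM in R cells and 374 and 404 RPM in WT cells and did not pass (log2 fold change -0.37, adjusted p = 0.0555, limma).

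Of 80 other splicing regulators listed, 66 were tested, 5 were higher, 3 were lower and 58 did not pass, so that 12.1% were called, against 16% of all tested genes, with a median log2 fold change of 0.08. MBNL2 and MBNL3, muscleblind proteins that set tissue splice forms, moved in opposite directions. MBNL2 had 376 and 398 RPM in R cells and 643 and 669.9 RPM in WT cells, and MBNL3 had 29.9 and 28.7 RPM in R cells and 12.5 and 15.3 RPM in WT cells. Their log2 fold changes were -0.76 for MBNL2 and 1.03 for MBNL3, with adjusted p of 0.00235 and 0.00644 (limma). RBM4, an RNA-binding protein that often works against PTBP1, had 54.7 and 40.6 RPM in R cells and 93.4 and 85.2 RPM in WT cells. PSPC1, a paraspeckle protein, had 40.9 and 34.8 RPM in R cells and 23.6 and 21.8 RPM in WT cells. CELF2, a regulator of neural and muscle splicing, had 1 read in R cells and 23 reads in WT cells, a ratio of 0.0450 with a counting interval of 0.00109 to 0.277, and passed the minimum of reads only through the parental libraries. SFPQ, SRRM2 and LUC7L were the further 3 higher genes, at 0.51, 0.35 and 0.48 on the log2 scale. PTBP1, a widely made repressor of exons, was at -0.01 (interval -0.22 to 0.21).

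SR proteins are moved and switched by phosphorylation, and 11 of 12 listed kinases, phosphatases and carriers were tested. PIM1, a serine/threonine kinase induced by cytokine signalling and placed on the list with the SR protein kinases, was the only one that passed (9.09% of the list, against 16% of all tested genes). It had 33.5 and 32.6 RPM in R cells, against 118 and 117 RPM in WT cells, a log2 fold change of -1.80 (adjusted p = 1.55e-04, limma). The dedicated SR protein kinases did not pass: SRPK1 had 188 and 173 RPM in R cells and 178 and 176 RPM in WT cells, and SRPK2 and CLK1 to CLK4 had log2 fold changes between -0.34 for CLK3 and 0.37 for CLK4. TNPO3, the importin that brings SR proteins into the nucleus, was at -0.07 (interval -0.32 to 0.18). Of the 14 genes named by the rule for these lists and the EMT list, only VIM passed when WT replicate 1 or WT replicate 2 was left out, with adjusted p up to 0.0280 (limma), the R libraries alone then giving the spread. Without R replicate 1, CELF2, MBNL3, OVOL1 and PSPC1 did not pass, with adjusted p between 0.0535 for PSPC1 and 0.151 for OVOL1 (limma). Without R replicate 2, CELF2, MBNL3 and OVOL1 did not pass, with adjusted p between 0.0540 for MBNL3 and 0.0892 for CELF2 (limma). For PIM1 the adjusted p without WT replicate 1 and without WT replicate 2 were 0.0529 and 0.0544 (limma), and its log2 fold change -1.79 and -1.81.

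**Figure D4:**
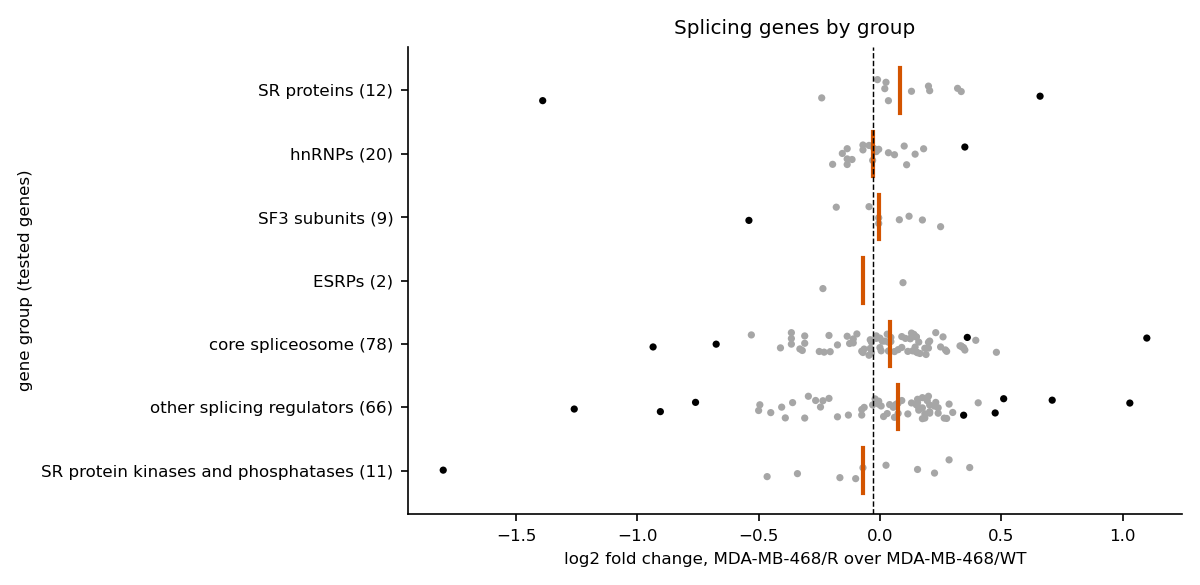
Log2 fold change of R over WT for each tested gene of the 4 families and the 3 further splicing lists, with the number tested in brackets, black points for an adjusted p of at most 0.05, an orange bar at the median of each group and a dashed line at the median of all tested genes. The medians lie between -0.07 and 0.08, and PIM1 at -1.80 and PUF60 at 1.10 lie at the ends.

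Some of these genes lie where many of the neighbours moved. On chromosome X, 139 of 380 tested genes were lower and 8 higher, with a median log2 fold change of -0.45, and on chromosome 8, 85 of 382 were higher and 28 lower, with a median of 0.14. The called share was 38.7% on chromosome X and 29.6% on chromosome 8, against 16% of all tested genes (5.36% higher and 10.6% lower). The 20 tested genes on each side of 5 genes, in RefSeq order, were examined after the values had been seen. Of the 40 neighbours of PUF60, 25 were higher and 0 lower, with a median of 0.79, and of the 40 neighbours of ZRSR2, 19 were lower and 0 higher, with a median of -0.62. HNRNPH2 on chromosome X had 104 and 95.3 RPM in R cells and 88.3 and 96.0 RPM in WT cells, a log2 fold change of 0.11 (interval -0.15 to 0.37), whereas 16 of its 40 neighbours were lower and 2 higher, with a median of -0.42. MBNL3 rose while its 40 neighbours, 4 higher and 4 lower, had a median of -0.34. The 40 neighbours of ESRP1 had a median of -0.12, with 1 higher and 3 lower. The called share was 62.5% beside PUF60, 47.5% beside ZRSR2, 45% beside HNRNPH2, 20% beside MBNL3 and 10% beside ESRP1. Those beside MBNL3 and ESRP1 were near the 16% of all tested genes. The part of chromosomal position in these values was not tested.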

How the data were processed

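Total RNA of the resistant and the parental line, 2 libraries each, was amplified with the Ion AmpliSeq transcriptome kit. The authors deposited log2 values of RPM plus 1 for each target, rounded to 2 decimals. The study names the Torrent Mapping Alignment Program. Bowtie2, bedtools and edgeR are listed in the submitters' processing notes with no version, the genome build is not given in the sources used here, and edgeR was not used here. Whole reads were recovered from the step of 1 read (0.125 to 0.146 RPM): 100% of values of up to 20 reads were whole within 0.1 reads. Totals were 7003809 and 7320289 reads in the R libraries and 6841709 and 7978069 reads in the WT libraries. Amplicon reads carry no molecular identifiers, so read floors and intervals of ratios cover counting error only.

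The deposited log2 values of the 12118 genes with 10 or more reads in 2 or more libraries entered limma 3.58.1 (R 4.3.3), as a linear model with group as its term and moderated variances that follow the mean. Tests were two-sided, with Benjamini-Hochberg adjustment over all these genes, 2 residual and 5.40 prior degrees of freedom. Adding 1 RPM before the logarithm understates the fold of low genes. The script was tested on simulated data. Alternatives were random sampling of reads (the assumption of the study's DEGSeq), limma-voom on recovered reads, RLE scaling, pseudocounts of 4 and 0.25 RPM, no filter, a mean of at least 5 RPM, leaving out each library, a replicate block and an unadjusted p.

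Named were all splicing factor genes past the adjusted p, ESRP1, ESRP2, SF3B1, the most abundant gene of each family and, in each further list, up to 5 called genes with the largest change and no overlap between groups. The others are named to show the roles within a family or list. Members, lists and tests were chosen with earlier results of these data known. All 45 symbols matched RefSeq, SF3B14 by synonym. Chromosomes come from RefSeq, and sequences from GENCODE 29 on GRCh38, aligned with Biopython 1.88. Of the target names, 28 had been turned into dates and 4 were repeated, none of them among the 45.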

Additional observations from a re-analysis of the deposited data

How the results depend on the processing

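SRSF8, HNRNPAB, SF3B5 and SRSF12 were also the calls under limma-voom on recovered reads, a pseudocount of 4 RPM and a pseudocount of 0.25 RPM. The count of higher genes among the splicing factors was 2 in the main test, 16 under random sampling of reads, 0 with no filter on low values, 1 with the replicate block, 5 at an unadjusted p and 0 to 5 when a library was left out. The count of lower genes was 2 in the main test, 11 under random sampling, 1 with no filter, 1 at a mean of at least 5 RPM and 0 to 4 when a library was left out. The count past 2.5-fold was 1 in the main test and 0 with a pseudocount of 4 RPM, at a mean of at least 5 RPM and with any library left out. SRSF12 was the lower gene called with no filter (adjusted p = 0.0444, limma). It fell below the mean of 5 RPM and was not tested there. Random sampling, which ignores the spread between libraries, called 2850 genes higher and 3505 lower over all tested genes, against 649 and 1290 in the main test, and no filter called 112 and 163 of 20809 targets. Random sampling thus called 62.8% of the splicing factors and 52.4% of all tested genes. An unadjusted p called 16.3% of the splicing factors and 31.3% of all tested genes. Without MDA-MB-468/R replicate 1 these shares were 16.3% and 16.6%, and without MDA-MB-468/R replicate 2 they were 20.9% and 16.1%. RLE scaling added SRSF6 to the calls and moved the median log2 fold change of the splicing factors to 0.032, against -0.005, and that of all tested genes to 0.00, against -0.03. With a library left out the median of the splicing factors was -0.01 to 0.06. The direction of HNRNPA2B1 and ESRP2 turned: with a library left out HNRNPA2B1 ranged from -0.035 (without MDA-MB-468/R replicate 1) to 0.105 and ESRP2 from -0.075 (without MDA-MB-468/WT replicate 2) to 0.265. With the replicate block, HNRNPAB was lost (adjusted p = 0.108, limma), and over all tested genes 497 were higher and 1114 lower. The replicate numbers are not shown to pair the libraries, since the correlation of same-numbered deviations was 0.0087 and there were 2 pairs. Over 26 named genes and all alternatives, 249 of 335 values kept their direction and side of the threshold, 68 lost the call, 16 gained it and 2 changed sign. Part of this tally was fixed in advance. The unadjusted p reuses the main fit, so it could turn no direction and lose no call. Genes whose groups do not overlap could not change direction when a library was left out.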
